A study of Homo sapiens with 6 samples.

Results

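The genes described here belong to the unfolded protein response and the integrated stress response, measured in 2 human breast cancer cell lines. They are 38 genes chosen by symbol, with earlier results of these data known. All 38 were found by symbol among the 61541 genes of the count table, and 35 of them had enough counts to be tested. The list was split into an ATF4 arm of 16 genes (the transcription factor ATF4, its partners and its target genes), 4 genes for the proteins that sense the stress, and an endoplasmic reticulum (ER) chaperone arm of 18 genes. RNA was sequenced in bulk from 3 libraries of parental MDA-MB-231, a triple-negative breast carcinoma line, and from 3 libraries of its derivative MDA-MB-231-D3H2LN, or MDA231-LN for short. That derivative is known to carry luciferase and to come from a lymph node metastasis that parental cells formed in mice. Both lines were untreated and kept in the same high-glucose medium with 10% serum, so the values are basal levels and no stress was applied. Each kind of cell is 1 line, and nothing in the labels says that its libraries came from separate cultures, so p-values measure the spread between these libraries, which may be technical. Lymph node origin cannot be told apart from any other difference between the lines.

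Cells read protein folding in the ER through 3 membrane proteins, PERK (encoded by EIF2AK3), IRE1 (ERN1) and ATF6. PERK, and GCN2 (EIF2AK4) on amino acid shortage, phosphorylate the translation factor eIF2, which slows protein synthesis in general while ATF4 is still translated. ATF4 then switches on genes of amino acid supply, redox balance and cell death, and PPP1R15A, whose product GADD34 takes the phosphate off eIF2 again. IRE1 splices the XBP1 message, and XBP1 and ATF6 switch on chaperones, folding enzymes and the machinery that removes misfolded proteins. ATF4 is controlled largely in translation, XBP1 by splicing and the kinases by phosphorylation, none of which a gene count reads.

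The libraries held 16461578 to 19171017 counted fragments, and library pairs of a line differed beyond sampling noise (chi-square per degree of freedom 3.87 to 8.91). The line labels were checked on markers: VIM, CD44, KRT8 and KRT18 lay between 355 and 2125 CPM (counts brought to the same library total) in the 6 libraries, whereas PGR and CDH1 stayed at or below 0.461 CPM and ESR1 at or below 1.11 CPM. ERBB2 was at 87.6 to 95.4 CPM. Of markers of other cells, CDH5, DCN and PTPRC reached at most 0.697 CPM, while PECAM1 (6.91 to 10.9 CPM), COL1A1 (9.06 to 17.9 CPM) and, in MDA231-LN, PROX1 (3.16 to 4.63 CPM) were above that. LYVE1 lies wholly inside another annotated gene and was not measured. In bulk RNA, fewer cells with a transcript and less of it per cell cannot be told apart.

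Chaperone promoters can carry a known sequence code, shown here because XBP1 and ATF6 can bind it. The ER stress response element (ERSE) reads CCAAT, then 9 free bases, then CCACG, and its relative ERSE-II reads ATTGG, 1 free base and CCACG. In RefSeq windows from 250 bases before to 50 bases after a gene's start (GRCh38.p14), searched on both strands, ERSE was present in 27 of 35116 windows (0.0769%) and ERSE-II in 19 (0.0541%). All 18 genes of the ER chaperone arm had a window; 8 of them held ERSE and another 3 held ERSE-II, against 0 of the 14 ATF4 arm genes with a window and 0 of the 4 sensor genes. The excerpts run 5′ to 3′ on the strand of the gene, with the motif in capitals.
HSPA5 (chr9:125241376-125241424, minus strand): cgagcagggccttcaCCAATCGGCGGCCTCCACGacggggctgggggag
XBP1 (chr22:28800588-28800636, minus strand): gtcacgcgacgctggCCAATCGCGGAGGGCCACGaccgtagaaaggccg
CALR (chr19:12938369-12938417, plus strand): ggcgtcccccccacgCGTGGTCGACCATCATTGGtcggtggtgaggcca
HYOU1 (chr11:119057259-119057405, minus strand): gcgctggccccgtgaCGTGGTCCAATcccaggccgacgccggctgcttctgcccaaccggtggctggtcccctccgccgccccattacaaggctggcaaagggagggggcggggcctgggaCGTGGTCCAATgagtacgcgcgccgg
HERPUD1 (chr16:56932010-56932050, plus strand): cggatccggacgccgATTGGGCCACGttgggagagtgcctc
CANX (chr5:179698763-179698811, plus strand): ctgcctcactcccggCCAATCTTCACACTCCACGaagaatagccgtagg
CRELD2 (chr22:49918539-49918587, plus strand): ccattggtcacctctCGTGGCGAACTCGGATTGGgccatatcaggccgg
The site began 66 bases before the start in HSPA5 and 52 bases before it in XBP1, on the strand of the gene in both. In HYOU1 ERSE-II occurred at 185 and at 79 bases before the start, both on the opposite strand, and the farther of them overlaps TGACGTGG, the core of the XBP1 element called UPRE, which 0.729% of all windows hold. A match describes letters and not a bound site, and the lack of a match in these windows does not exclude binding.

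Across the members, more genes were lower than higher in MDA231-LN, mostly by small amounts, and few differences were large. A gene is said to have risen or fallen in MDA231-LN where it passed the edgeR quasi-likelihood test at a Benjamini-Hochberg adjusted p under 0.05 over all 14176 tested genes. Of the 35 members tested, 4 rose (11.4%) and 21 fell (60%), where 31.6% of all tested genes rose and 31.2% fell. The 25 that passed in either direction made up 71.4%, near the 62.8% of all tested genes. The 3 libraries of 1 line all lay above the 3 of the other for 25 members too, beside 66.6% of all tested genes. Of the 35 members tested, 20 were higher in the parental line without overlap and 5 in MDA231-LN, beside 32.8% and 33.8% of all tested genes. The median log2 fold change of the 35 members, MDA231-LN minus parental, was -0.22 beside 0.02 over all tested genes. At least 2-fold changes were seen in 6 of the 35, namely DDIT4, TRIB3, PSPH, ATF6, HYOU1 and PPP1R15A, beside 20.6% of all tested genes. Of the 35, only PPP1R15A rose at least 2-fold and 5 fell at least 2-fold, beside 13.0% and 7.53% of all tested genes. Of the 6 genes, 4 belong to the ATF4 arm. The median absolute log2 fold change was 0.34 in the members and 0.44 over all tested genes. Values below are CPM on TMM-scaled library sizes (TMM is edgeR's correction for library composition), with ± as the SD over 3 libraries, and log2 fold changes carry their SE.

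**Figure D1:**
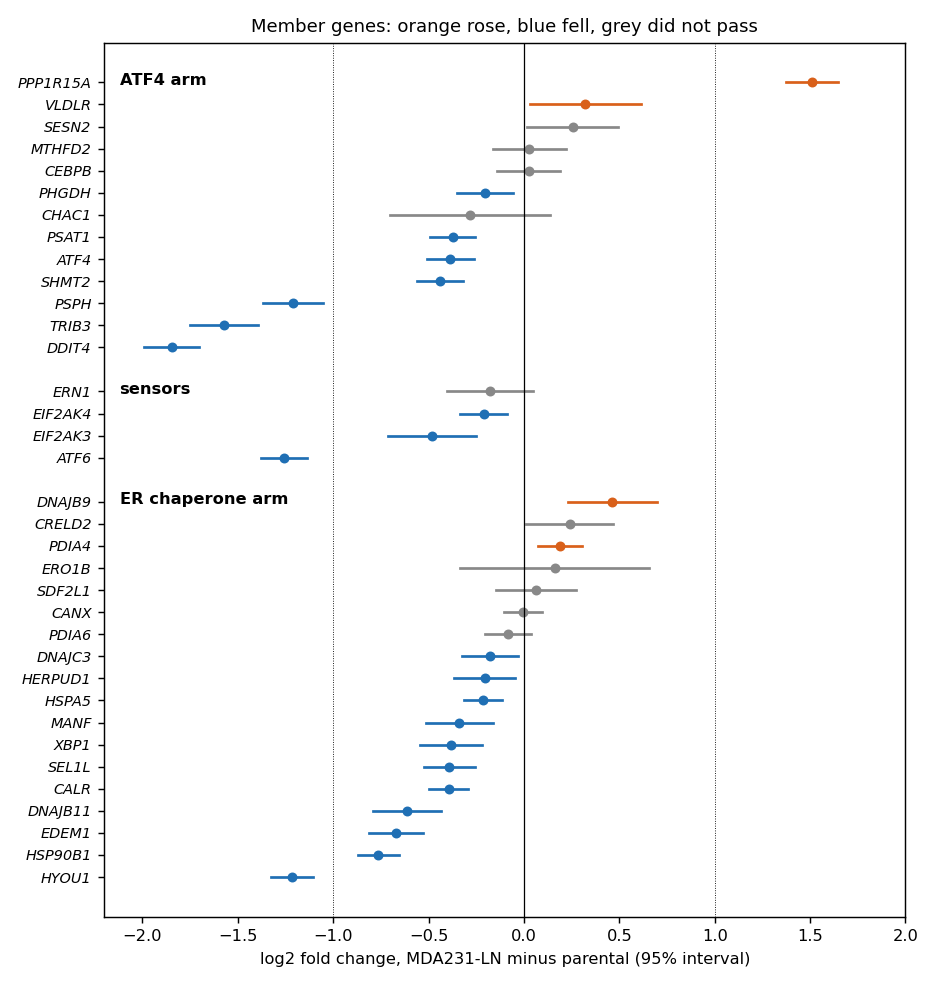
Log2 fold change (x axis, MDA231-LN minus parental, with 95% interval) of the 35 tested members, ordered within the ATF4 arm, the sensors and the ER chaperone arm. Points are orange where the gene rose, blue where it fell and grey where it did not pass, and dotted lines mark 2-fold. Of the points, 21 are blue and 4 orange, and PPP1R15A stands alone beyond 2-fold on the right.

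In the ATF4 arm, 13 of 16 genes were tested, of which 2 rose (15.4%), 7 fell (53.8%) and 4 did not pass. Of all tested genes 31.6% rose and 31.2% fell. The share that passed was 69.2% in the arm, near the 62.8% of all tested genes. The median log2 fold change of the arm was -0.28. ATF4 itself was at 311, 342 and 309 CPM in the parental libraries and at 238, 232 and 266 CPM in MDA231-LN. All 3 MDA231-LN libraries lay below all 3 parental libraries, and ATF4 fell 1.31-fold (log2 fold change -0.39 ± 0.06; edgeR quasi-likelihood, Benjamini-Hochberg adjusted p = 3.16e-06). DDIT3, which encodes the pro-apoptotic factor CHOP, was not measured. Of its exonic bases 86.3% lie inside another annotated gene, and reads touching more than 1 gene had been left out of the counts, which came to 9 in the parental line and 18 in MDA231-LN. ASNS, asparagine synthetase, and ATF5, a further stress-response transcription factor, lie wholly inside other genes, were listed at 0 in every library and were not measured either.

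The most changed members were a feedback phosphatase regulator that was higher and 2 stress-induced inhibitors that were lower. PPP1R15A was at 57.6, 62.5 and 57.5 CPM in the parental libraries and at 157, 168 and 180 CPM in MDA231-LN. The groups were far apart, and PPP1R15A rose 2.85-fold (59.2 ± 2.86 to 168 ± 11.5 CPM; log2 fold change 1.51 ± 0.07; edgeR adjusted p = 1.51e-16). It lies on chromosome 19 from 48872421 to 48876058 of GRCh38, and none of its exonic bases is shared with another gene. DDIT4, which encodes REDD1, an inhibitor of the growth kinase mTORC1, was at 320, 317 and 264 CPM against 80.1, 80.7 and 89.4 CPM. Even its lowest parental library was well above its highest MDA231-LN library, and DDIT4 fell 3.60-fold (300.3 ± 31.4 to 83.4 ± 5.23 CPM; log2 fold change -1.85 ± 0.07; edgeR adjusted p = 6.69e-18). TRIB3, a pseudokinase that restrains ATF4 and the kinase AKT, was at 59.7, 55.6 and 58 CPM against 19.3, 18.4 and 20.5 CPM. The libraries of each line were close together, and TRIB3 fell 2.98-fold (57.8 ± 2.07 to 19.4 ± 1.03 CPM; log2 fold change -1.57 ± 0.09; edgeR adjusted p = 1.4e-14). DDIT4 lies on chromosome 10 from 72273919 to 72276036 and TRIB3 on chromosome 20 from 362835 to 397559, both with no overlapped exonic bases.

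The 3 enzymes that make serine from a glycolytic intermediate were all lower, by very different amounts. PHGDH, the first enzyme of the route, was at 61.9, 61.2 and 60.5 CPM against 53.4, 49.9 and 56 CPM and fell 1.15-fold (log2 fold change -0.20 ± 0.07; edgeR adjusted p = 0.0165). PSAT1, the next enzyme, was at 154, 153 and 152 CPM against 118, 124 and 113 CPM and fell 1.30-fold (log2 fold change -0.37 ± 0.06). PSPH, the last enzyme, was at 66.8, 68.9 and 69.5 CPM against 29.1, 29.5 and 29.9 CPM. In each of these genes the lines did not overlap, and PSPH fell 2.32-fold (68.4 ± 1.38 to 29.5 ± 0.383 CPM; log2 fold change -1.21 ± 0.08; edgeR adjusted p = 2.12e-13). PSPH lies on chromosome 7 from 56011051 to 56051604, with no overlapped exonic bases. The PHGDH call was lost with upper-quartile scaling (log2 fold change -0.09, edgeR adjusted p = 0.269) and without MDA231-LN replicate 2 (-0.16, edgeR adjusted p = 0.0963).

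Mitochondrial use of serine was split. SHMT2, which passes a carbon unit from serine to folate in mitochondria, was at 306, 311 and 277 CPM against 207, 219 and 232 CPM and fell 1.36-fold (log2 fold change -0.44 ± 0.06). MTHFD2, the next enzyme of that pathway, was at 31.7 ± 3.1 CPM (parental) and 32.4 ± 1.54 CPM (MDA231-LN) and did not pass (log2 fold change 0.03, 95% interval -0.16 to 0.22). Its count rests on the part of the gene outside its neighbours, since 74.2% of its exonic bases lie inside other genes. Among the other members of the arm, VLDLR, a lipoprotein receptor, was at 14.2, 10.6 and 17.4 CPM against 17.9, 16.4 and 18.8 CPM. Its libraries overlapped, and its 1.25-fold rise was only just past the threshold (log2 fold change 0.32 ± 0.14; edgeR adjusted p = 0.048). The VLDLR call was lost with DESeq2 (adjusted p = 0.0601) and on leaving out any 1 library other than parental replicate 3, with adjusted p up to 0.326 without parental replicate 2.

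SESN2, a sestrin that restrains mTORC1, was at 15.3, 14 and 14.8 CPM against 17.8, 18.3 and 16.6 CPM. Its lines did not overlap, yet it missed the threshold (log2 fold change 0.26, 95% interval 0.02 to 0.49; edgeR adjusted p = 0.0569). SESN2 passed with RLE scaling (edgeR adjusted p = 0.0461), upper-quartile scaling (0.00783) and a filter of 1 CPM (0.0448). CHAC1, an enzyme that degrades glutathione, was low and overlapped between the lines, at 7.25, 6.85 and 5.83 CPM against 6.86, 5.49 and 4.01 CPM (log2 fold change -0.28, 95% interval -0.70 to 0.14). CEBPB, a dimer partner of ATF4, was at 74.3 ± 9.29 and 75.5 ± 4.79 CPM (log2 fold change 0.02, 95% interval -0.14 to 0.19), and another gene covers 39.1% of its exonic bases. The ATF4 element was searched as 9 letters with the last fixed as T, TGATGNAAT. In that form it was found in 0.991% of all windows and in none of the 36 members with a window. Its core of 8 letters, TGATGNAA, searched after the values were seen, is in 3.62% of all windows and in those of ASNS, CHAC1 and HERPUD1.

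**Figure D2:**
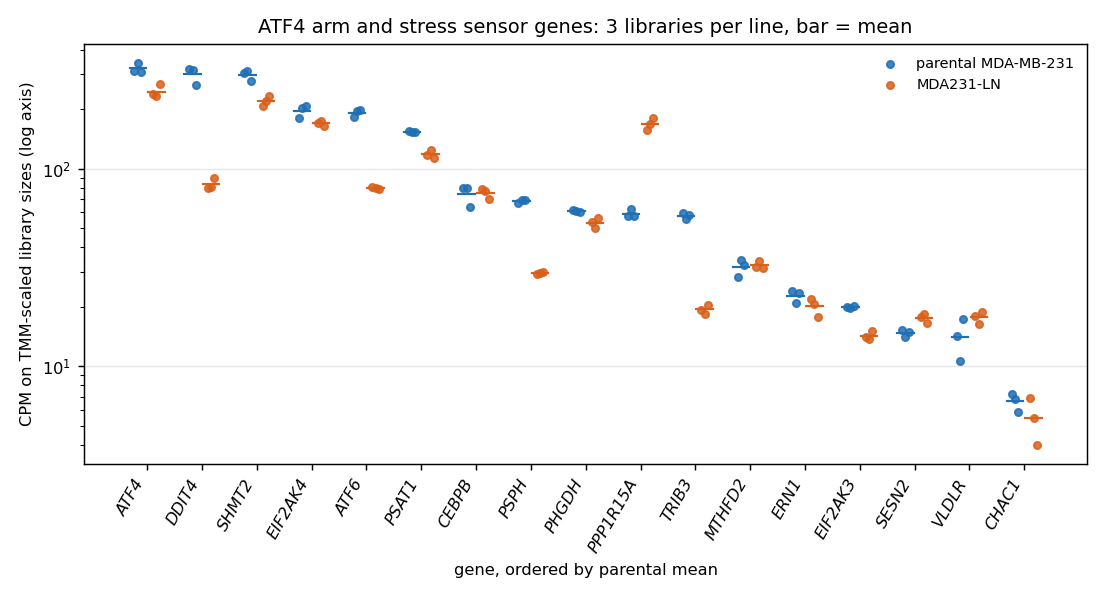
CPM on TMM-scaled library sizes (y axis, log scale) of the 13 tested ATF4 arm genes and the 4 sensor genes, ordered by parental mean on the x axis. Each dot is 1 library (blue parental, orange MDA231-LN) and each bar the mean of 3. The gap between the lines is widest for DDIT4, TRIB3, PSPH, ATF6 and PPP1R15A, the last being the only 1 of these with the orange dots above.

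Of the 4 sensor genes 3 fell and 1 did not pass, where 31.2% of all tested genes fell. ATF6, which encodes a membrane-bound transcription factor that is cut and released on ER stress, was at 181, 195 and 197 CPM in the parental libraries and at 81.1, 79.8 and 78.9 CPM in MDA231-LN. The lines were fully separate, and ATF6 fell 2.39-fold (191 ± 8.5 to 80 ± 1.08 CPM; log2 fold change -1.26 ± 0.06; edgeR adjusted p = 6.51e-16). EIF2AK3 was at 20, 19.8 and 20.1 CPM against 14.1, 13.7 and 15 CPM and fell 1.40-fold (log2 fold change -0.48 ± 0.11; edgeR adjusted p = 0.000525), with 43.2% of its exonic bases inside other genes. EIF2AK4 was at 181, 202 and 207 CPM against 170, 174 and 165 CPM and fell 1.16-fold (log2 fold change -0.21 ± 0.06; edgeR adjusted p = 0.00298). That difference was -0.10 with upper-quartile scaling and no longer passed (edgeR adjusted p = 0.138). ERN1 was at 23.9, 20.9 and 23.4 CPM against 21.9, 20.6 and 17.7 CPM, overlapped between the lines and did not pass (log2 fold change -0.18, 95% interval -0.41 to 0.05; edgeR adjusted p = 0.156).

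ATF6 lies on chromosome 1 from 161766298 to 161977574, EIF2AK3 on chromosome 2 from 88556741 to 88691518, EIF2AK4 on chromosome 15 from 39934115 to 40035591 and ERN1 on chromosome 17 from 64039080 to 64130819 of GRCh38. All 4 are long genes, and the counts cover introns as well as exons.

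In the ER chaperone arm all 18 genes were tested, of which 2 rose (11.1%), 11 fell (61.1%) and 5 did not pass. Of all tested genes 31.6% rose and 31.2% fell. The median log2 fold change of the arm was -0.21. Only 1 of its genes (5.56%) changed at least 2-fold, beside 20.6% of all tested genes. XBP1, the transcription factor of the arm, was at 70.9, 89.9 and 73.3 CPM in the parental libraries and at 60.4, 59.6 and 59.3 CPM in MDA231-LN. Its lines did not overlap, and XBP1 fell 1.30-fold (log2 fold change -0.38 ± 0.08; edgeR adjusted p = 0.000137). HSPA5, which encodes BiP, the main Hsp70 chaperone of the ER, was at 877, 913 and 871 CPM against 752, 765 and 773 CPM. This was a small difference with separate lines, and HSPA5 fell 1.16-fold (887 ± 22.6 to 764 ± 10.8 CPM; log2 fold change -0.22 ± 0.05; edgeR adjusted p = 0.000382). XBP1 lies on chromosome 22 from 28794555 to 28800597 and HSPA5 on chromosome 9 from 125234853 to 125241382. Gene counts do not tell spliced from unspliced XBP1.

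Among the large chaperones, HYOU1, an Hsp110-like partner of BiP, was at 388, 400 and 383 CPM against 164, 165 and 174 CPM. The libraries of each line agreed closely, and HYOU1 fell 2.33-fold (390.5 ± 8.57 to 168 ± 5.56 CPM; log2 fold change -1.22 ± 0.05; edgeR adjusted p = 1.59e-16). It lies on chromosome 11 from 119044188 to 119057227, and another gene covers 17% of its exonic bases. HSP90B1, the ER Hsp90 called GRP94, was at 547, 558 and 542 CPM against 320, 340 and 311 CPM and fell 1.70-fold (log2 fold change -0.76 ± 0.05; edgeR adjusted p = 1.47e-12). Its lines were well apart, and 59% of its exonic bases lie inside other genes and were not counted.

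The lectin chaperones, which hold glycoproteins until they are folded, differed from each other. CALR, calreticulin, was at 1132, 1232 and 1134 CPM against 871, 895 and 896 CPM and fell 1.31-fold (log2 fold change -0.39 ± 0.05; edgeR adjusted p = 1.47e-07). CANX, its membrane-bound relative calnexin, was at 1730, 1852 and 1831 CPM against 1773, 1857 and 1768 CPM. The CANX libraries of both lines were intermingled (log2 fold change -0.00, 95% interval -0.10 to 0.10; edgeR adjusted p = 0.948). With upper-quartile scaling the CANX difference was 0.11 and passed (edgeR adjusted p = 0.0375). Per kilobase of exon outside other genes, CALR was the highest of the arm at 497 CPM per kilobase in the parental line and 379 in MDA231-LN. CANX followed at 297 and 296, HSP90B1 at 285 and 168 and HSPA5 at 227 and 195 CPM per kilobase, on counts that include intron reads.

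Of the 3 members that form and reshuffle disulfide bonds, PDIA4 rose, and PDIA6 and ERO1B did not pass. PDIA4 was at 244, 253 and 227 CPM against 264, 274 and 286 CPM and rose 1.14-fold (log2 fold change 0.19 ± 0.06; edgeR adjusted p = 0.00516), with all MDA231-LN libraries above the parental ones. PDIA6 was at 240.2 ± 18.1 and 227 ± 4.04 CPM and did not pass (log2 fold change -0.08, 95% interval -0.20 to 0.04). Without parental replicate 3 it passed as lower (-0.15, edgeR adjusted p = 0.0188). ERO1B, an oxidase that recharges the isomerases, was low at 3.65 ± 0.681 and 4.09 ± 0.809 CPM and did not pass (log2 fold change 0.16, 95% interval -0.33 to 0.66), with 71.2% of its exonic bases inside other genes.

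The J-domain co-chaperones of BiP moved in both directions. DNAJB9, known as ERdj4 and as a repressor of IRE1, was at 14.5, 16.9 and 14.8 CPM against 22.3, 21.8 and 19.5 CPM. It rose 1.38-fold with no overlap between the lines (log2 fold change 0.46 ± 0.11; edgeR adjusted p = 0.000897). DNAJB11, or ERdj3, was at 48.3, 44.2 and 43.7 CPM against 28.1, 28.9 and 31.9 CPM and fell 1.53-fold (log2 fold change -0.61 ± 0.09; edgeR adjusted p = 7.49e-07), with 60.8% of its exonic bases inside other genes. DNAJC3, also called p58IPK and known to inhibit eIF2 kinases, was at 92.2 ± 8.59 and 81.5 ± 4.18 CPM, and its lines overlapped. Its 1.13-fold decrease passed (log2 fold change -0.18 ± 0.07; edgeR adjusted p = 0.0313), but not with upper-quartile scaling (edgeR adjusted p = 0.427), with DESeq2 (adjusted p = 0.0628). Leaving out parental replicate 3 (0.152) or MDA231-LN replicates 1 or 3 (0.0651 and 0.155) also ended the call by the edgeR adjusted p.

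The 3 members that serve the removal of misfolded proteins, EDEM1, SEL1L and HERPUD1, fell. EDEM1, which marks misfolded glycoproteins for export, was at 122, 120 and 128 CPM against 84.1, 69.4 and 78.7 CPM and fell 1.59-fold (log2 fold change -0.67 ± 0.07; edgeR adjusted p = 3.33e-09). SEL1L, the adaptor of the HRD1 ubiquitin ligase, was at 189, 183 and 215 CPM against 152, 158 and 138 CPM and fell 1.31-fold (log2 fold change -0.39 ± 0.07). HERPUD1, a scaffold of the same ligase, was at 49.3, 53.2 and 51.2 CPM against 42.1, 44.4 and 46.8 CPM. These 3 genes did not overlap between the lines, and HERPUD1 fell 1.15-fold (log2 fold change -0.21 ± 0.08; edgeR adjusted p = 0.0225). The HERPUD1 call was lost with upper-quartile scaling (edgeR adjusted p = 0.287) and without parental replicate 2 (0.0606) or MDA231-LN replicates 1 or 2 (0.117 and 0.0583).

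The small secreted or luminal factors did not move together. MANF, a secreted partner of BiP, was at 59.6, 62.2 and 49.2 CPM against 43.1, 44.3 and 47.7 CPM and fell 1.26-fold (log2 fold change -0.34 ± 0.09; edgeR adjusted p = 0.00121). CRELD2, known to be induced together with MANF on ER stress, was at 16.8, 19.4 and 17.4 CPM against 19.7, 20.6 and 23 CPM. Its lines did not overlap, with MDA231-LN higher, and it missed the threshold (log2 fold change 0.24, 95% interval 0.01 to 0.47; edgeR adjusted p = 0.0604). CRELD2 passed with RLE scaling (edgeR adjusted p = 0.0482) and upper-quartile scaling (0.00718), with a filter of 1 CPM (0.0469) and without parental replicate 2 (0.0376). SDF2L1, a co-factor of ERdj3, was at 22 ± 1.01 and 22.9 ± 1.23 CPM and did not pass (log2 fold change 0.06, 95% interval -0.15 to 0.27).

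**Figure D3:**
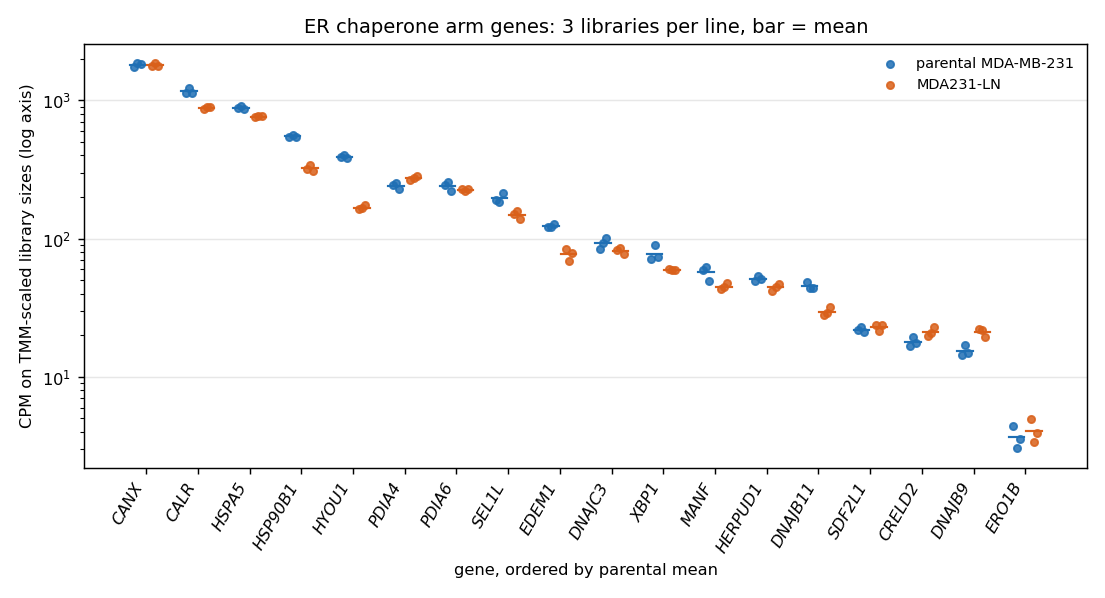
CPM on TMM-scaled library sizes (y axis, log scale) of the 18 ER chaperone arm genes, ordered by parental mean on the x axis. Each dot is 1 library (blue parental, orange MDA231-LN) and each bar the mean of 3. The widest gap is that of HYOU1, and the dots of CANX, the gene with the most counts, lie at the same height.

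The arm was also divided by the promoter code shown above. Of the 11 genes with ERSE or ERSE-II, 6 fell, 0 rose and 5 did not pass, with log2 fold changes from -1.22 (HYOU1) to 0.24 (CRELD2) and a median of -0.21. Of the 7 genes without either motif, 5 fell and 2 rose, with log2 fold changes from -0.67 (EDEM1) to 0.46 (DNAJB9) and a median of -0.34. These are descriptions without a test. HSPA5, XBP1, CALR, HYOU1 and HERPUD1, whose sites are printed above, fell, whereas CANX and CRELD2 carry the same kind of site and did not pass.

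To show whether neighbours differed as well, each member was set beside the other tested genes of its 10-Mb chromosome window. HYOU1 lies in a window of chromosome 11 (110 to 120 Mb) in which 50 of 68 other genes fell, with a median log2 fold change of -0.89, and ATF6 in a window of chromosome 1 (160 to 170 Mb) in which 38 of 65 fell, with a median of -0.61. The window of PSPH on chromosome 7 (50 to 60 Mb) held 17 other tested genes, 14 of which fell (median -0.76). In that of HSP90B1 on chromosome 12 (100 to 110 Mb) 43 of 69 fell (median -0.51). The window of PPP1R15A on chromosome 19 (40 to 50 Mb) leaned upward, with a median of 0.57 over 196 genes, which is less than the 1.51 of PPP1R15A. The window median was 0.05 for DDIT4, where 17 of 66 other genes fell, and -0.16 for TRIB3, where 28 of 62 fell. Of all tested genes 31.2% fell.

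Both genes of the ER chaperone arm that rose lie on the long arm of chromosome 7, where the windows were higher still. The median was 0.72 around DNAJB9 (90 genes) and 0.66 around PDIA4 (50 genes), against 0.46 and 0.19 for the genes themselves. With the window median subtracted, both turned negative (-0.26 for DNAJB9 and -0.47 for PDIA4). CALR and MANF fell in windows that were lower still, with medians of -0.46 in both, where 127 of 190 and 54 of 82 other genes fell, and turned slightly positive on subtraction (0.0645 and 0.12). In the other direction, PHGDH, EIF2AK4 and SEL1L fell in windows whose medians were positive, at 0.43, 0.31 and 0.37, the last over only 14 genes. The window leaned the same way as the gene for all 4 members that rose and for 11 of the 21 that fell. Among all tested genes this held for 72.4% of those that rose and 70.3% of those that fell. The part of the neighbourhood in these differences was not tested.

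**Figure D4:**
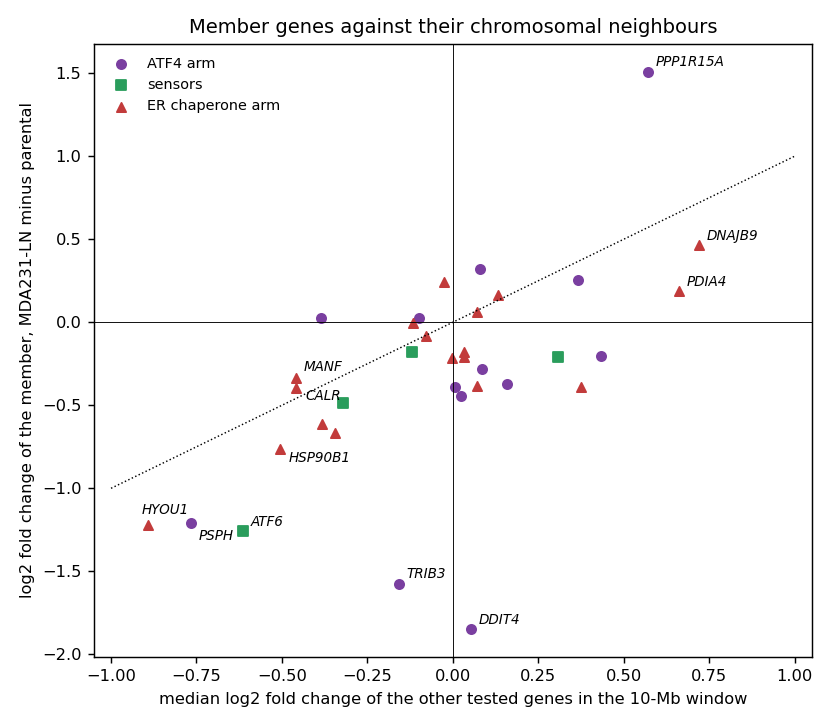
Log2 fold change of each of the 35 tested members (y axis) against the median log2 fold change of the other tested genes in its 10-Mb window (x axis), both MDA231-LN minus parental, with symbols for the ATF4 arm, the sensors and the ER chaperone arm. On the dotted line a member changed as much as its neighbours. HYOU1, PSPH and ATF6 lie at the left with lower neighbours, while DDIT4 and TRIB3 lie far below 0 with window medians of 0.05 and -0.16.

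The wider pathway was read from 128 further genes in 7 lists, of which 106 were tested. These lists, too, were chosen with earlier results of these data known. In these lists 19 genes rose (17.9%) and 56 fell (52.8%), beside the 31.6% and 31.2% of all tested genes, and the median log2 fold change was -0.27. Of 11 tested genes for eIF2, its kinases, its exchange factor eIF2B and the adaptor NCK1, 4 rose (36.4%) and 5 fell (45.5%). EIF2AK1, the haem-regulated eIF2 kinase, fell from 183 ± 4.95 to 103 ± 5.1 CPM (log2 fold change -0.83 ± 0.06), and EIF2S3, the gamma subunit of eIF2, rose from 218 ± 2.85 to 346 ± 6.16 CPM (0.67 ± 0.05). Their window medians were -0.61 over 66 other genes and 0.40 over 18. PPP1R15B, which encodes the constitutive counterpart of GADD34, lies wholly inside another gene and was not measured.

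Among 18 tested further ATF4 partners and targets, 5 rose (27.8%) and 8 fell (44.4%), beside 31.6% and 31.2% of all tested genes. Of the 18 tested, 4 fell at least 2-fold (22.2%), beside 7.53% of all tested genes. SLC7A5, the leucine transporter subunit LAT1, fell from 1069 ± 3.44 to 443 ± 7.83 CPM (log2 fold change -1.27 ± 0.05), and GDF15, a secreted stress cytokine, from 11.7 ± 1.78 to 4.29 ± 0.852 CPM (-1.43 ± 0.18). TNFRSF10B, the TRAIL death receptor DR5, fell from 164 ± 10.3 to 67.7 ± 2.06 CPM (-1.28 ± 0.06), and KLHL24, a ubiquitin ligase adaptor, from 20.1 ± 1.6 to 8.96 ± 0.697 CPM (-1.16 ± 0.13). The window medians were 0.16 for SLC7A5, -0.45 for GDF15, -0.58 for TNFRSF10B and -0.38 for KLHL24. In the list of folate and serine use, 3 of 9 tested genes rose (33.3%) and 2 fell (22.2%). MTHFD2L, a mitochondrial relative of MTHFD2, rose from 18.9 ± 0.0593 to 32.9 ± 2.98 CPM (0.80 ± 0.10).

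On the ER side, 3 of 12 tested further signal genes rose (25%) and 5 fell (41.7%), beside 31.6% and 31.2% of all tested genes. CREB3L2, a membrane-bound transcription factor related to ATF6, fell from 229 ± 8.81 to 92.3 ± 0.338 CPM (log2 fold change -1.31 ± 0.06) in a window with a median of 1.17. For its relative CREB3L3, the parental libraries summed to 3 counts and the MDA231-LN libraries to 61, a ratio of 18.1 (exact 95% counting interval 5.92 to 90.4). Of 21 tested further folding and quality control genes, 2 rose (9.52%) and 14 fell (66.7%). PDIA5, another disulfide isomerase, was the only 1 of these changed at least 2-fold (39.7 ± 1.63 to 16 ± 1.86 CPM; log2 fold change -1.31 ± 0.10).

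Of 18 tested genes of ER-associated degradation, 0 rose and 10 fell (55.6%) by the edgeR test, beside 31.6% and 31.2% of all tested genes. No rise was called with DESeq2 or limma-voom either, and 1 gene, UBE2G2 (named after its value was seen), was higher at an unadjusted p under 0.05. With upper-quartile scaling 4 rose. The 18 include DERL1, which did not pass and has 100% of its exonic bases inside other genes. SYVN1, which encodes the ligase HRD1 itself, fell from 112 ± 7.67 to 64.8 ± 4.46 CPM (log2 fold change -0.79 ± 0.07), and HERPUD2, a relative of HERPUD1, from 44.3 ± 3.18 to 23.1 ± 2.76 CPM (-0.94 ± 0.10). Their window medians were -0.01 and -0.51. Of 17 tested genes of protein entry into the ER, 2 rose (11.8%) and 12 fell (70.6%). SPCS2, a subunit of signal peptidase, fell furthest (107 ± 6.64 to 40.1 ± 0.891 CPM; log2 fold change -1.42 ± 0.07) and lies on chromosome 11 in a window with a median of -1.48.

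**Figure D5:**
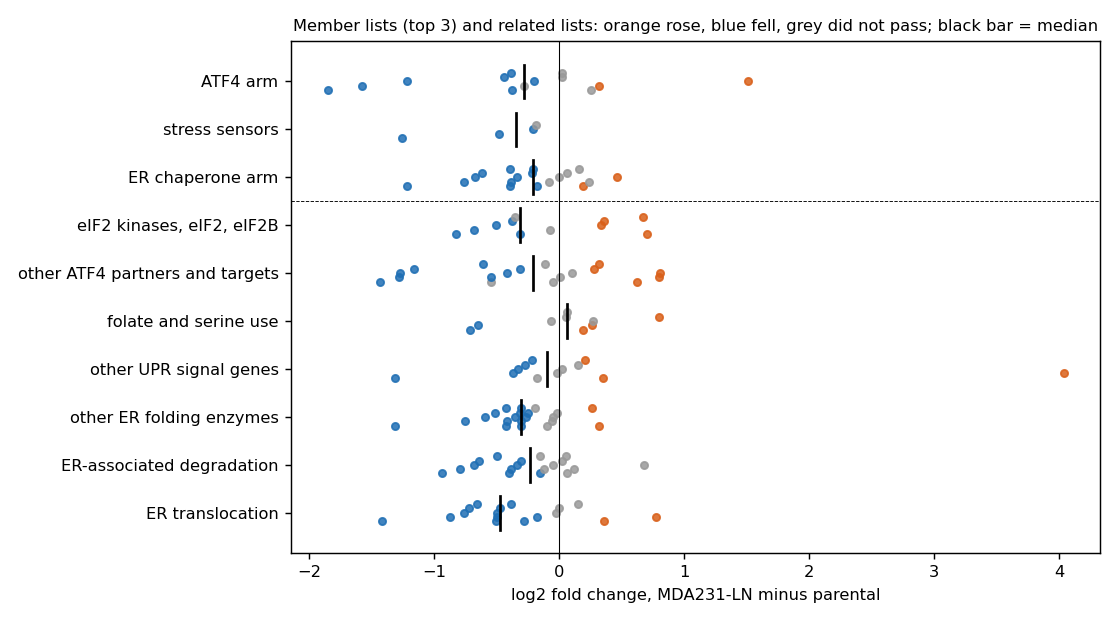
Log2 fold change (x axis, MDA231-LN minus parental) of every tested gene in the 3 member lists (above the dashed line) and the 7 related lists. Each dot is a gene (orange rose, blue fell, grey did not pass) and each black bar the list's median. Medians lie below 0 in all lists shown except that of folate and serine use, where it is 0.06, and the dot at 4.03 is CREB3L3.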

How the data were processed

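RNA of 3 parental and 3 MDA231-LN libraries was aligned to GRCh38 with STAR, per the submitters' processing notes, which give no version. Per the file headers, the authors counted fragments per gene with featureCounts 2.0.1 on Ensembl release 105, and deposited raw counts. The counts cover whole gene bodies, ignore strand and skip reads that align to more than 1 place or span more than 1 gene. Genes inside other genes can therefore show few or no counts while expressed, and 38748 gene spans overlap. Of the related genes, DERL1, ALDH1L2 and EIF2S2 were tested with 100%, 97.8% and 91.1% of their exonic bases inside other genes. None of them passed. Exonic overlap was computed from GENCODE 29 exons and the table's gene spans. The submitters' processing notes also name DESeq2; the authors' output from it is not used here.

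Groups were taken from the labels. Genes were tested with edgeR 4.0.16 (quasi-likelihood, TMM, filterByExpr, R 4.3.3), with Benjamini-Hochberg adjustment over 14176 tested genes. CPM used TMM-scaled library sizes. Intervals of log2 fold changes are 95%, and those of counts reflect counting error alone, as reads lacking molecular identifiers are not independent molecules. Promoter windows came from RefSeq (GRCh38.p14) and matched 36 of the 38 members by symbol, the first window with a match being shown. The alternatives tried were DESeq2 1.42.0, limma-voom (limma 3.58.1), scaling by RLE or upper quartile, a 1 CPM filter (3 libraries) or none, a block for the replicate number, omission of single libraries, an adjusted p under 0.01 and subtraction of the 10-Mb window median. The edgeR test was tried on simulated counts, and the motif search on short made-up sequences. Tables and figures used Python 3.11.15 with numpy 2.4.6, pandas 2.3.3 and matplotlib 3.10.9.

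The members and lists were chosen with earlier results of these data known. Full statistics were given for members changed at least 2-fold and for ATF4, EIF2AK3, EIF2AK4, ERN1, ATF6, XBP1 and HSPA5; DDIT3, also in the rule, had too few counts to be tested. From each related list up to 4 genes changed at least 2-fold with the smallest adjusted p were named; lists with no such gene gave at most 2 genes, those ranked first by adjusted p. A gene that this rule names is not reported here.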

Additional observations from a re-analysis of the deposited data

How the results depend on the processing

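Of the 25 members that rose or fell, 20 kept their call and direction in all 13 alternative fits; the other 5 were VLDLR, PHGDH, EIF2AK4, DNAJC3 and HERPUD1. Upper-quartile scaling shifted the median over all tested genes from 0.02 to 0.13 (log2) and the share of calls that were higher from 50.3% to 60%. With it 4 genes of the ER chaperone arm and 29 of the related lists rose, in place of 2 and 19, and CANX changed sign (0.11, edgeR adjusted p = 0.0375). In the ATF4 arm 1 gene rose in place of 2 with DESeq2 and at an adjusted p under 0.01, and between 1 and 2 rose on leaving out each library, the lost gene being VLDLR, whereas 3 rose with RLE scaling, upper-quartile scaling and the 1 CPM filter, the added gene being SESN2. Subtracting the window median reversed PDIA4 (-0.47), DNAJB9 (-0.26), CALR (0.0645) and MANF (0.12). Among the related lists, the further signal genes that fell numbered 3 in place of 5 with upper-quartile scaling, DESeq2, an adjusted p under 0.01 or without parental replicate 1 or MDA231-LN replicates 1 or 2, and 5 rose in place of 3 with upper-quartile scaling. That scaling also gave 5 rising genes in place of 3 for folate and serine use and 4 in place of 0 for ER-associated degradation, where RLE scaling, the 1 CPM filter and leaving out MDA231-LN replicate 3 gave 1. The core of the ATF4 element matched 3 members in place of 0. Same-numbered libraries did not deviate together (correlations -0.05, 0.00 and -0.00), which cannot tell whether they were prepared together. The main fit did not pair them. With the replicate block 2 rose and 7 fell in the ATF4 arm, 3 sensor genes fell, and 2 rose and 11 fell in the ER chaperone arm, as without it, and 8591 genes passed in place of 8904. The causes of these shifts were not tested. DDIT3, ASNS and ATF5 cannot be read from these counts, and CHAC1 and ERO1B, at under 8 CPM, have wide intervals.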
